A study of Rattus norvegicus with 24 samples.

Results

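The hypothalamus of Sprague Dawley rats on the day of first ovulation was compared with that of juvenile rats, to ask which transcripts differ between an animal that has reached puberty and one shortly before it. The late proestrus group held 5 rats aged 31 days (animals 11, 12, 13, 14 and 20). The juvenile group held 4 rats aged 26 days (animals 1, 2, 3 and 5). These 9 arrays were chosen by stage label out of 24 in the series, which also covers early juvenile rats of 21 days, late juvenile rats of 29 days and rats in early proestrus. All rats were of the same strain and no treatment is given in the labels. One more juvenile array, from animal 4, was left out because it detected 19.5% of probes, whereas the lowest share among the 9 arrays kept was 47.2%. Both groups were numbered between 1 and 20, so the comparison does not run along the split in animal numbers that separates the early juvenile and late juvenile rats from the rest. Within that range the juvenile rats had the lower numbers (1 to 5) and the late proestrus rats the higher ones (11 to 20). Stage and the order of animal numbers therefore cannot be told apart. Animals were 5 days apart in age, so age and reproductive state cannot be told apart.

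In female rats, puberty is completed when neurons of the hypothalamus release gonadotropin-releasing hormone in a surge that makes the pituitary discharge luteinizing hormone. Neurons that make kisspeptin drive that release, and rising estradiol from the ovary feeds back on them. Proestrus is the day of the cycle on which the estradiol rise ends in the surge and ovulation follows.

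Signal was read on Illumina bead arrays, on which the brightness of a probe reports how much of 1 transcript is present. The tables used here do not pair probes with genes, so transcripts are given by probe identifier, the tissue label was not checked against marker genes, and no pathway was counted. Of 22523 probes, 11258 were detected (detection p-value under 0.05) on at least 4 of the 9 arrays. They stood for 11054 transcripts, of which 9008 were detected on all 9 arrays. Just inside this limit, the 429 probes detected on 4 arrays had a median log2 signal of 5.67, and just outside it the 464 probes detected on 3 arrays had a median of 5.58. The filter let 45 transcripts through on late proestrus arrays alone and 2 on juvenile arrays alone. These counts are not alike, since 4 of the 5 late proestrus arrays sufficed but all 4 juvenile arrays were needed. Transcripts of both kinds are among those tested. In bulk tissue, fewer cells of a type and less RNA per cell cannot be told apart.

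Between juvenile and late proestrus rats, 1 transcript rose (0.00905% of those tested) and 1 fell (0.00905%). Probe ILMN_1355623 was 4.77-fold higher in late proestrus and probe ILMN_1373253 was at 0.667 times its juvenile level. In a limma fit of 22 arrays with 1 mean per stage, these 2 of 11054 transcripts passed an adjusted p of 0.05 (0.0181%), with 614 at an unadjusted p under 0.05 (5.55%). Of the 614, 369 were higher (3.34%) and 245 lower (2.22%) in late proestrus. The dimmest of the 9 arrays, juvenile animal 5, weighed on the second count, which came to 1196 (10.8%) without it, 595 higher and 601 lower, while 3 transcripts passed the adjusted threshold. With limma's array weights, 28 of the 11054 transcripts passed, 20 higher and 8 lower, both of the above among them. In that fit 1756 had an unadjusted p under 0.05 (15.9%). Juvenile animal 5 then had a weight of 0.205, against 0.624 to 2.64 on the other 8 arrays. The 26 added transcripts differed by 0.22 to 0.95 on the log2 scale in the unweighted fit. Their limma adjusted p-values there were 0.0859 to 0.854. The groups did not overlap for 14 of the 28, against 229 of all 11054 (2.07%). The 28 were called on a difference between these same arrays, so that share is no separate evidence.

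ILMN_1355623 was high on every late proestrus array. On the normalized log2 scale it stood at 9.53 in animal 11, 9.89 in animal 12, 9.44 in animal 13, 10.17 in animal 14 and 9.99 in animal 20. In juvenile rats it stood at 7.30, 7.88, 7.39 and 7.62 in animals 1, 2, 3 and 5. The groups did not overlap, and the lowest late proestrus rat lay 1.56 above the highest juvenile rat. The means were 9.80 ± 0.31 (SD, n = 5) and 7.55 ± 0.26 (SD, n = 4), a log2 difference of 2.26 (SE 0.22, 95% interval 1.80 to 2.71, limma adjusted p = 1.73e-05). As a fold, the interval ran from 3.47 to 6.57. The same split stood in the signal before any correction, which ran from 959.2 to 1459 on the late proestrus arrays and from 259.1 to 440.1 on the juvenile arrays. On juvenile animal 4, the array left out, its raw signal was 181.1 and the probe was not detected. It passed in all 24 alternative settings run, with log2 differences of 1.53 to 2.51, the smallest with the authors' processed values.

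ILMN_1355623 was higher in juvenile than in early juvenile rats, and higher again in late than in early proestrus. Early juvenile rats were at 6.33 ± 0.12 (SD, n = 5), and juvenile minus early juvenile was 1.22 (SE 0.22, limma adjusted p = 0.00761). Early proestrus rats, at 7.84 ± 0.69 (SD, n = 3), differed from the juvenile rats by 0.29 (SE 0.25, limma adjusted p = 1.00). Late proestrus differed from early proestrus by 1.97 (SE 0.24, limma adjusted p = 7.00e-04). Late juvenile rats, at 7.83 ± 0.37 (SD, n = 5), differed from the juvenile rats by 0.28 (95% interval -0.18 to 0.74). These comparisons share arrays with each other. Early proestrus animal 17, of the same age as the late proestrus rats (31 days), was at 8.07, and animal 18, aged 32 days, at 8.37. Both lay below all 5 late proestrus rats.

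ILMN_1373253, a bright probe, was lower on every late proestrus array after normalization. It stood at 11.28, 11.18, 11.23, 11.21 and 11.15 in late proestrus animals 11, 12, 13, 14 and 20. In juvenile animals 1, 2, 3 and 5 it stood at 11.91, 11.76, 11.65 and 11.86. The groups were 0.37 apart at their nearest, and the late proestrus rats lay within a narrow band. In the signal before any correction the groups overlapped. It ran from 1959 to 3287 on the late proestrus arrays and was 2099 on the dim array of juvenile animal 5. On the arrays of juvenile animals 1, 2 and 3 it ran from 4204 to 4405. The means were 11.21 ± 0.05 (SD, n = 5) and 11.79 ± 0.12 (SD, n = 4), a log2 difference of -0.59 (SE 0.08, 95% interval -0.75 to -0.42, limma adjusted p = 0.00198). The call was lost when the 9 arrays were normalized and fitted alone (difference -0.59, adjusted p = 0.0874) and when arrays were scaled to a common median rather than quantile normalized (difference -0.45, adjusted p = 0.478). The median difference over all transcripts was 0.11 after such scaling and 0.00139 in the reported fit. The call was also lost in the fit of all 24 arrays, where the difference was -0.61 (adjusted p = 0.924). With juvenile animal 4 added alone the call was kept (difference -0.61, limma adjusted p = 0.0051). The other array added, early proestrus animal 10, detected 6.33% of probes and did not detect this one. The cause of the loss was not tested.

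The lower level of ILMN_1373253 was already present at 29 days. Early juvenile rats were at 12.38 ± 0.09 (SD, n = 5), above all juvenile rats, and juvenile minus early juvenile was -0.58 (SE 0.08, limma adjusted p = 6.75e-04). Late juvenile rats of 29 days were already at 11.19 ± 0.14 (SD, n = 5) and early proestrus rats at 11.28 ± 0.09 (SD, n = 3). Late proestrus minus late juvenile was 0.02 (95% interval -0.14 to 0.18) and late proestrus minus early proestrus was -0.07 (95% interval -0.25 to 0.11). Early proestrus minus juvenile, at -0.51 (SE 0.09), did not pass (limma adjusted p = 0.163).

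**Figure D1:**
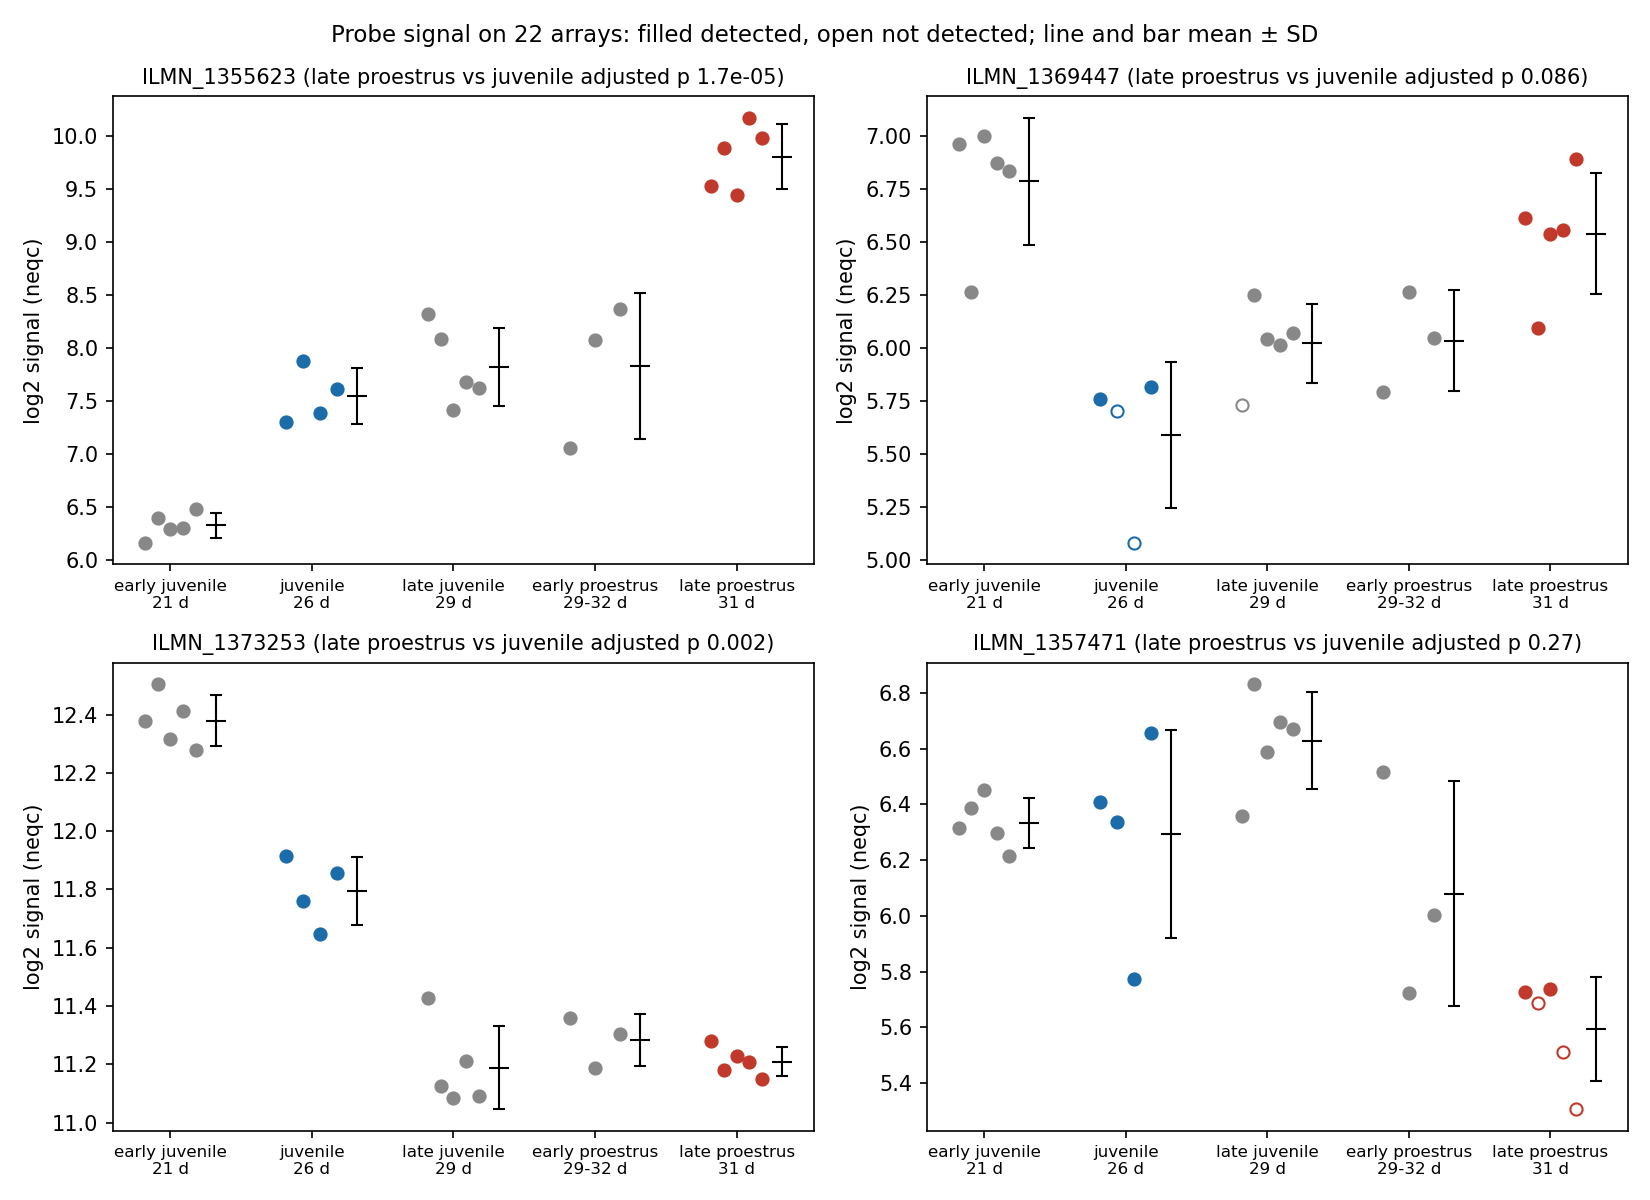
Normalized log2 signal of the 4 probes named in the text (vertical axis) on 22 arrays by stage (horizontal axis), with juvenile in blue, late proestrus in red, other stages in grey, open points where the probe was not detected, and the mean ± SD beside each stage. ILMN_1355623 stands between 9.44 and 10.17 in late proestrus against 7.30 to 7.88 in juvenile rats, and ILMN_1373253 between 11.15 and 11.28 against 11.65 to 11.91.

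The next transcript in each direction, detected on every array of the group where it was higher, did not pass. ILMN_1369447 stood at 6.61, 6.10, 6.53, 6.56 and 6.89 in late proestrus animals 11, 12, 13, 14 and 20, and at 5.76, 5.70, 5.08 and 5.82 in juvenile animals 1, 2, 3 and 5. The groups did not overlap, but only 2 of 4 juvenile arrays detected it, so the size of the difference rests partly on values near background (log2 difference 0.95, SE 0.17, 95% interval 0.58 to 1.31, limma adjusted p = 0.0859). Its difference was 0.30 when no background was removed, and the authors' deposited values gave 0.29. Its early juvenile level was 6.78 ± 0.30 (SD, n = 5), so the juvenile mean was the lowest of the 5 stages, and the late proestrus mean differed from the early juvenile mean by -0.25 (95% interval -0.59 to 0.10). It passed with array weights (adjusted p = 0.0374), after median scaling (adjusted p = 0.0216), with juvenile animal 4 added (adjusted p = 0.0472) and without late proestrus animal 12 (adjusted p = 0.0201).

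ILMN_1357471 stood at 5.73, 5.69, 5.74, 5.51 and 5.31 in late proestrus animals 11, 12, 13, 14 and 20, where 2 of 5 arrays detected it, and at 6.41, 6.34, 5.77 and 6.66 in juvenile animals 1, 2, 3 and 5. The groups were 0.03 apart, with juvenile animal 3 next to the late proestrus rats. The log2 difference was -0.70 (SE 0.16, 95% interval -1.03 to -0.37, limma adjusted p = 0.266), and it passed without juvenile animal 3 (difference -0.87, adjusted p = 0.0291). That size rests partly on values near background: it was -0.21 when no background was removed, and the authors' deposited values gave -0.20. Late juvenile rats had the highest mean of the 5 stages, at 6.63 ± 0.17 (SD, n = 5).

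**Figure D2:**
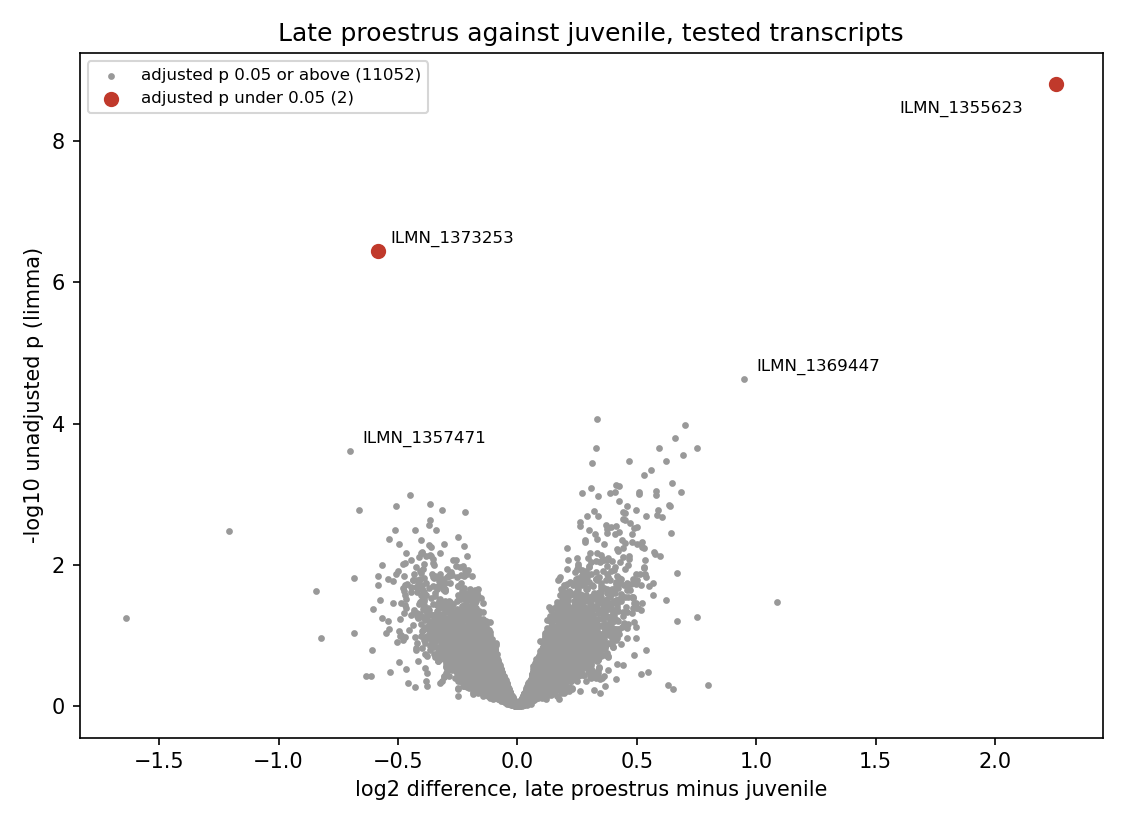
Each point is 1 of 11054 transcripts, with its log2 difference (late proestrus minus juvenile) on the horizontal axis and -log10 of the unadjusted limma p on the vertical axis. The 2 transcripts past the adjusted threshold are in red, and ILMN_1355623 stands alone at a difference of 2.26.

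Differences as large as that of ILMN_1355623 could be bounded for nearly every transcript. The median size of the measured difference was 0.09 on the log2 scale and its median SE was 0.14. For 10947 of the 11054 transcripts (99.03%) the 95% interval of the difference lay wholly inside a 2-fold change in either direction, and for 9224 (83.4%) inside a 1.5-fold change. These intervals are for single transcripts and are not adjusted for their number. The offset added in background correction shrinks differences between dim probes, so for these the bounds hold on the corrected scale.

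Brightness set how tight the bound was. Among the 2764 brightest transcripts, with mean log2 signals from 9.94 to 16.04, the median SE was 0.09 and 95.9% of intervals lay inside 1.5-fold. Among the 2764 dimmest, from 5.45 to 6.53, the median SE was 0.18 and 64.3% did. The share at an unadjusted p under 0.05 was 7.05% among the dimmest and 4.88% among the brightest.

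Measured differences beyond 1.5-fold were seen for 38 transcripts, 24 higher and 14 lower, and beyond 2-fold for 4. Of these 4, ILMN_1355623 was called. The other 3, 1 higher and 2 lower in late proestrus by 1.09 to 1.64 on the log2 scale, had SEs of 0.36 to 0.81 and limma adjusted p-values from 0.540 to 0.889. In all 3 the groups overlapped, with an SD of 0.64 or more in the more variable group.

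**Figure D3:**
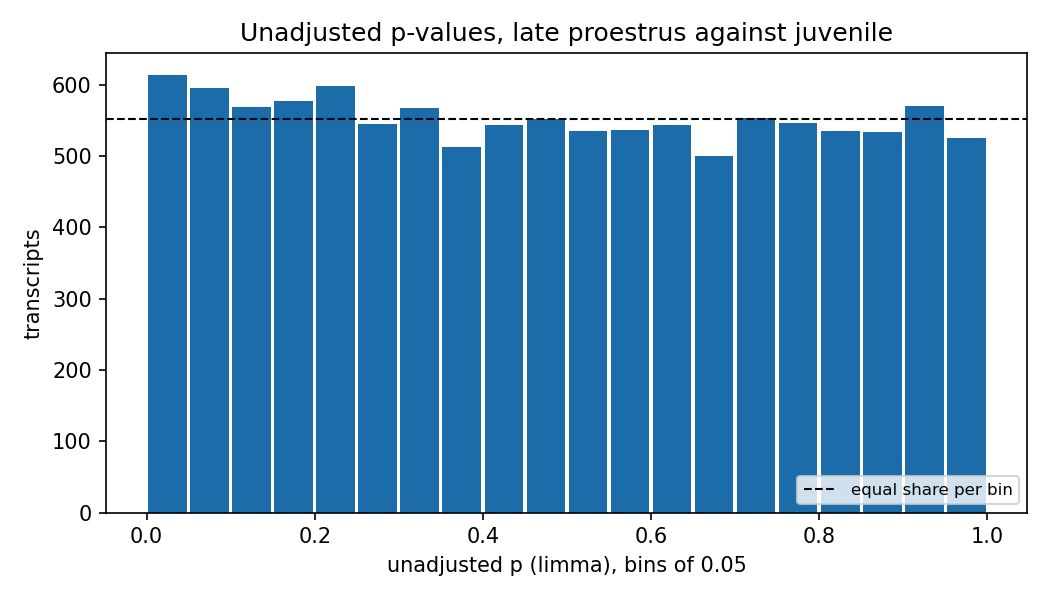
Number of transcripts (vertical axis, from 0) by unadjusted limma p in 20 bins of 0.05 (horizontal axis), with a dashed line at an equal share per bin. The first bin holds 614 transcripts and the other bins between 500 and 595.

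Counted by array, the groups did not overlap for 229 transcripts (2.07%). Some transcripts separate in this way by chance alone with 5 arrays against 4, and the count was not tested against that share. All 5 late proestrus arrays lay above all 4 juvenile arrays for 154 (1.39%), and below them for 75 (0.678%). Higher transcripts thus outnumbered lower ones by this count, as they did among the 614 transcripts at an unadjusted p under 0.05, but not in the 1196 found without juvenile animal 5.

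Few probes changed from undetected to detected. Of all 22523 probes, 9165 were detected on all 9 arrays and 8754 on none. Only 14 probes were detected on all 5 late proestrus arrays and on no juvenile array, and 2 on all 4 juvenile arrays and on no late proestrus array. All 16 were dim, with a mean log2 signal of at most 6.14 in the brighter group. They were among the 11054 transcripts tested. Of the 16, 12 had an unadjusted limma p under 0.05, against 5.55% of all, and 0 passed the adjusted threshold. The pattern that chose them fixes their direction, so the 12 are no separate evidence. Without juvenile animal 5 these counts were 25 and 7. The share of probes detected per array was 49.6% ± 0.9 (SD, n = 5) in late proestrus and 48.3% ± 0.9 (SD, n = 4) in juvenile rats, a difference of 1.35 percentage points (two-sided exact permutation test over 126 arrangements, p = 0.0397). Leaving out 1 array gave a p above 0.05 in 8 of 9 cases, with a difference of 0.952 points without late proestrus animal 13, while counting detection at a p-value under 0.01 gave 2.11 points (p = 0.00794, same exact test). Juvenile animal 4 was left out for its low detected share, so this test compares arrays chosen by the measure tested. With that array added the difference was 7.12 points (two-sided exact permutation p = 0.0317). The part of the detected share in the detection counts was not tested. With the detected share as a covariate in the fit, the same 2 transcripts passed, with differences of 2.24 and -0.60.

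The correlation across the 11054 transcripts ran from 0.987 to 0.993 over the 10 pairs of late proestrus arrays and from 0.977 to 0.993 over the 20 pairs made of 1 array of each group. Juvenile animal 5 gave the low values: its 8 correlations ran from 0.974 to 0.985. Without it, the 15 pairs across groups ran from 0.9860 to 0.9926 and the 3 pairs of juvenile arrays from 0.9917 to 0.9924. The median SD between animals was 0.16 in late proestrus and 0.20 in juvenile rats, and 0.12 among juvenile animals 1, 2 and 3. Mean raw signal was 906.7 ± 133.2 (SD, n = 5) in late proestrus and 835.3 ± 220.6 (SD, n = 4) in juvenile rats (exact permutation p = 0.579, two-sided), and 513.7 on the array of juvenile animal 5.

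A principal component analysis of the 9 arrays put most weight on single animals. Component 1 (35.4% of variance) set juvenile animal 5 (-35.4) apart from the other 8 arrays (-7.60 to 15.6). Component 2 (15.1%) had late proestrus animal 20 at -22.9 and the others between -3.18 and 12.0. Component 3 (12.5%) was the one of these on which the stages did not overlap, and it is described here for that reason, with no test. Late proestrus arrays scored from 5.28 to 11.2 and juvenile arrays from -10.3 to -8.77 on it.

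**Figure D4:**
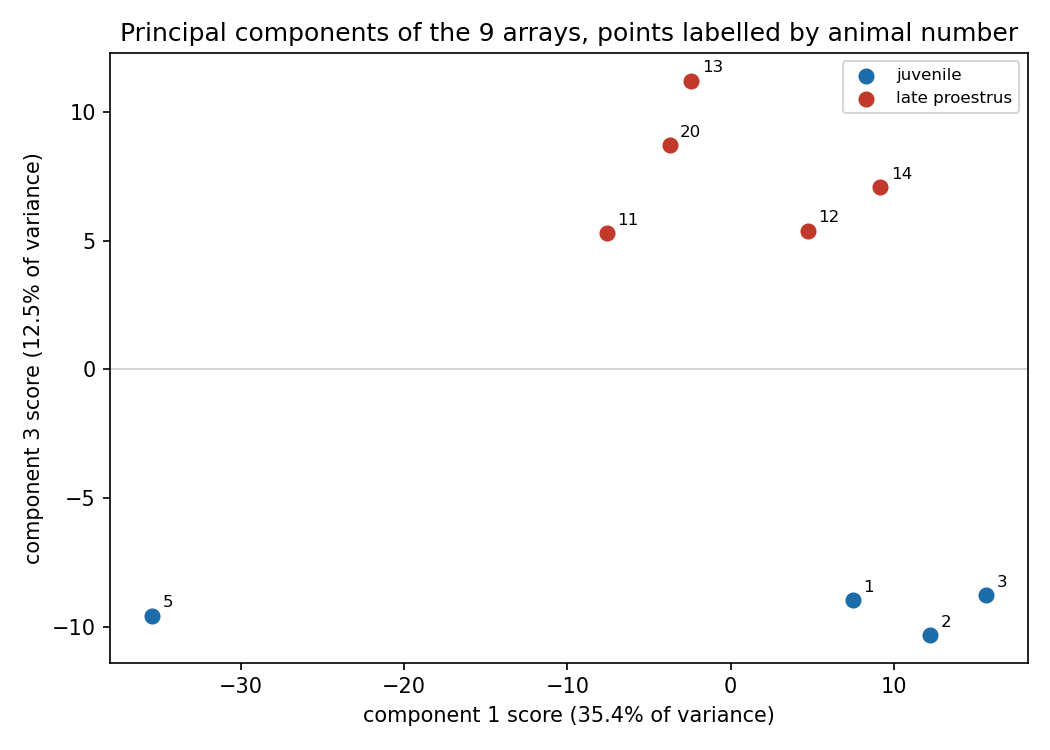
Scores of the 9 arrays on components 1 (horizontal axis) and 3 (vertical axis) of 11054 transcripts, juvenile in blue and late proestrus in red, labelled by animal number. Juvenile animal 5 stands apart along component 1, and the stages separate along component 3, which holds 12.5% of the variance.

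The direction of the differences at the unadjusted threshold was set beside comparisons that use none of these 9 arrays. Estimated by limma from the p-values, 98.2% of the 11054 transcripts did not differ, and 84.2% in the fit without juvenile animal 5. Many of the 614 may therefore not differ. Among the 614 transcripts at an unadjusted p under 0.05, 385 (62.7%) had the same sign in early proestrus minus early juvenile, against 54.7% of all 11054. In early proestrus minus late juvenile, 414 (67.4%) had the same sign, against 55.9% of all. In late juvenile minus early juvenile, where both groups are immature, 279 (45.4%) did, against 48.5% of all. Across all transcripts the correlation with late proestrus minus juvenile was 0.15, 0.14 and -0.01 in the 3 comparisons. These shares are descriptions across transcripts, which are not independent, from arrays normalized together, and the 3 comparisons share arrays with each other. Early proestrus, juvenile and late proestrus rats also share the range of animal numbers from 1 to 20, and its part in these shares was not tested.

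The same fit was read for the other pairs of stages. On the same 11054 transcripts, limma called 0 in early proestrus against juvenile (414 at an unadjusted p under 0.05), 1 in late against early proestrus and 2 in late proestrus against juvenile. Late juvenile against juvenile, 3 days apart, gave 1654 (15.0%), and late proestrus against early juvenile gave 805 (7.28%). Juvenile against early juvenile gave 293 (2.65%), and early proestrus against early juvenile gave 568 (5.14%). Against late juvenile rats the count was 783 (7.08%) for early proestrus and 2608 (23.6%) for late proestrus. Late against early juvenile gave 2780 (25.1%). With array weights the count for late proestrus against juvenile was 28, and the other pairs were not refitted in this way. The median SE was 0.14 for late proestrus against juvenile, 0.15 for early proestrus (n = 3) against juvenile and for late against early proestrus, and 0.13 for late proestrus against early juvenile. The counts themselves were not tested against each other. Stage and the block of animal numbers cannot be told apart in the comparisons with early or late juvenile rats. Late proestrus and juvenile rats lie in the same block, but there too the numbers of the groups do not interleave.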

How the data were processed

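Hypothalamic RNA of 24 rats was labelled with biotin and hybridised to Illumina arrays, per the labels' protocols. The deposited intensity of 22523 probes was not normalized and had no background subtracted, per the file headers and values. Beside it stood a deposited detection p-value per probe and array, taken for the array whose signal column precedes it. A second table holds the authors' processed intensity. It kept the rank order of the raw signal on each array, with a shared maximum of 62830, and its sorted values agreed within 1% (for 99% of ranks) on 22 arrays, so it is quantile normalized on a linear scale. The sources used here name no scanner software or genome build.

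Intensities of 22 arrays (without juvenile animal 4 and early proestrus animal 10, of low detection) were corrected and quantile normalized with neqc (offset 16) in limma 3.58.1 under R 4.3.3, giving log2 values. The brightest probe stood for each target identifier. lmFit and eBayes used 1 mean per stage, with Benjamini-Hochberg adjustment over 11054 transcripts. The number of arrays limits the precision. The fit was also run on simulated data, with independent noise of the same spread on every array. Those runs therefore do not cover arrays of unequal quality.

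The arrays, gene lists and tests were chosen with earlier results of these data known. The 28 gene lists are not analysed here, since 0 probe or target identifiers matched the reference gene table (GRCr8). The rule for naming probes took the 2 largest rises and falls past the threshold, detected on every array of the higher group, filled up by smallest unadjusted p where fewer passed. Alternatives were background correction, scaling, the authors' values, the filter, probes per target, the arrays fitted, array weights, the spread, a covariate and leaving out each array.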

Additional observations from a re-analysis of the deposited data

Results flagged for a closer look

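The most extreme array of each group was compared with its neighbours for 6 measures: the share of probes detected, the mean signal and the 4 named probes. Of 12 sets of values, 2 had 1 array far from the others, where chance flags about 1 in 20. Late proestrus animal 13 detected 51.2% of probes, against 49.2% ± 0.3 (SD) on the other 4 arrays. ILMN_1369447 was at 5.08 in juvenile animal 3, against 5.70 to 5.82 on the other 3 juvenile arrays. Its difference without that array was 0.78 (limma adjusted p = 0.391).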

How the results depend on the processing

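The count of 2 transcripts became 1 on the 9 arrays alone and 1 on all 24 arrays, 28 with array weights (20 higher, 8 lower), 28 with juvenile animal 4 added under array weights (21 higher, 7 lower) and 5 without the 2 dimmest arrays of the fit, juvenile animal 5 and late juvenile animal 28 (3 higher, 2 lower, with 1599 at an unadjusted p under 0.05). It was 2 or 3 in the other settings, also when each of the 9 arrays was left out in turn. The fit without the 2 dimmest arrays and a fit of the 12 arrays of animals 1 to 20 were added after seeing the data. Array weights all but remove juvenile animal 4 (weight 0.00817). Elsewhere the cause was not tested. No named probe changed sign in 94 recomputed differences, which leave most arrays in common, and 9 of the 94 crossed the threshold, 3 losing and 6 gaining the call. Without background correction the differences were 1.55 for ILMN_1355623, -0.55 for ILMN_1373253, 0.30 for ILMN_1369447 and -0.21 for ILMN_1357471, the last 2 about 3 times smaller than reported. The difference in detected share was 0.952 to 1.65 percentage points when 1 array was left out, with exact permutation p above 0.05 in 8 of 9 cases (up to 0.161). The difference in mean signal ran from -35.8 (without juvenile animal 5) to 127.7. No paired analysis was possible because animal numbers are not shared between the groups. Signal over background limits the dim probes, of which ILMN_1369447 and ILMN_1357471 are examples.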
